A study of Mus musculus with 16 samples.

Results

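The 10 genes described here encode enzymes of mitochondrial fatty acid beta-oxidation, namely Cpt1a, Cpt2, Acadvl, Acadl, Acadm, Echs1, Hadh, Hadha, Hadhb and Acaa2. They were chosen by symbol as the enzymes of the pathway that ends in the thiolase Acaa2, and all 10 were found among the 15805 genes of the count table. The choice began from Acaa2, which had been called higher with blebbistatin in these same libraries. Its own difference is therefore given as a description without a test, and counts of called members are set beside the background without further reading.

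RNA was sequenced from 16 primary explants of epicardial cells, 8 cultured with blebbistatin and 8 cultured without it. Blebbistatin inhibits the motor activity of myosin II, and the labels name nonmuscle myosin II as the target. All explants came from C57BL6 mice and grew on a collagen gel, and the controls are labelled as having had no blebbistatin. The labels write the dose in conflicting units, and they state no age, length of treatment or solvent for the controls. An explant is a piece of tissue from which cells grow out, so that it may hold cells other than epicardium, and the labels do not say whether each explant came from a different animal. The p-values thus measure the spread between explants, which may in part be technical.

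Beta-oxidation breaks fatty acids down to acetyl-CoA inside mitochondria. The carnitine palmitoyltransferases Cpt1a and Cpt2 pass long-chain acyl groups from CoA to carnitine and back, for their way across the mitochondrial membranes. Each turn of the spiral then removes a fragment in a fixed sequence of dehydrogenation, hydration, a second dehydrogenation and thiolytic cleavage, and it is a main source of energy in the adult heart muscle. The first steps on the longest chains use enzymes bound to the inner membrane, whereas shorter intermediates use soluble enzymes of the matrix.

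Total counts per library were 20176386 to 89620195 with blebbistatin and 27065611 to 60321622 in controls. The members held 29 to 8983 counts in a library, and the lowest count was one of Acadvl. In the edgeR fit across 15675 genes, 95 genes were called at an adjusted p under 0.05, which is 0.606% of those tested, with 40 higher and 55 lower. Mitochondrially encoded genes took a larger share of the counts with blebbistatin, 21.4 ± 3.21%, against 16.4 ± 1.70% in controls (SD, n = 8 each, exact permutation test, two-sided, p = 0.00326, adjusted over 9 measures 0.0294).

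All 11 listed epicardial and mesothelial genes were measured, which does not by itself establish the type of cell. Their summed level was 1134 to 3567 CPM in treated explants, against 1914 to 3785 CPM in control explants, and Upk1b, the most abundant, averaged 817 CPM in treated explants, against 1004 CPM in control explants. Over all tested genes, 54.1% had a log2 fold change above 0 and 12.2% had an unadjusted p under 0.05 by edgeR. Of the 11 markers, 10 had a log2 fold change below 0, with a median of −0.38, while 0 were called and 5 had an unadjusted p under 0.05. These were the keratin genes Krt18 at −1.41, Krt19 at −1.33 and Krt8 at −1.28, with Msln at −0.78 and Tbx18 at −0.68, and their edgeR adjusted p-values were 0.0593 to 0.285. Genes of cardiomyocytes, of which 9 of 13 listed were measured, summed to 705 to 1286 CPM with blebbistatin and 462 to 1063 CPM in controls (exact permutation test, two-sided, p = 0.00870, adjusted 0.0392). Most of that sum was Tnnt2, for cardiac troponin T, with a mean of 859 CPM in treated explants, against 549 CPM in control explants. Of the 7 cardiomyocyte genes tested, 1 was called, Ttn for titin, at 48.2 ± 21.9 CPM in treated explants, against 15.5 ± 12.1 CPM in control explants (log2 fold change 1.64, edgeR adjusted p = 0.0464). Its call ended with the Y-linked (edgeR adjusted p = 0.202), cardiomyocyte (0.82) and mitochondrial share (0.402) covariates. These fits called 21, 0 and 1 of all tested genes, in that order. The cardiomyocyte covariate is the mean of markers that include Ttn itself, so that fit cannot test Ttn. The call of Ttn also ended without blebbistatin 3, 4, 6, 7 or 8 and without control 1, 2, 3, 4, 5, 7 or 8 (0.0545 to 0.101). It ended without blebbistatin 1 and 8 together as well (0.0712). Of the 7, 6 had a log2 fold change above 0, with a median of 0.66, and 3 had an unadjusted p under 0.05 by edgeR. Apart from Ttn, the values were 2.12 for Ryr2, 0.71 for Actn2, 0.66 for Tnnt2, 0.41 for Myl4, 0.08 for Tnni1 and −0.26 for Myl7. None of these 6 was called. The listed markers Tnni3, Myh7, Nppa and Pln were absent from the count table, which holds only genes above 1 CPM in at least 4 libraries. Myh6 and Actc1 were in it but did not pass the count filter of the fit. The 7 other measures, which were total counts, genes detected and the summed epicardial, adipocyte, macrophage, endothelial and erythroid markers (of which the last 3 were led by Lyz2, Tek and Alas2), had adjusted p-values of 0.295 to 0.784 in the same exact permutation test. The mitochondrial share missed the threshold without control 3, 7 or 8 (adjusted p of the exact permutation test 0.0615, 0.0545 and 0.0503), and the cardiomyocyte sum without any 1 of 11 of the 16 explants (0.0615 to 0.079). The part of these measures and markers in the difference of Acaa2 was not tested. The fits with covariates, given with Acaa2, cannot test it, since the cardiomyocyte sum and the mitochondrial share themselves differed between the groups.

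Acaa2, from which the choice began, encodes the soluble 3-ketoacyl-CoA thiolase of the mitochondrial matrix, which splits off acetyl-CoA in the last step of the spiral for medium-chain and short-chain substrates (ENSMUSG00000036880, chromosome 18, 74779197 to 74806208, plus strand, build GRCm38). Its level in CPM, which relates counts to library size scaled by the TMM method, had a lowest value of 46.1, a median of 72.2 and a highest value of 109 with blebbistatin. In controls the lowest value was 29.1, the median 31.3 and the highest 48.2 CPM. All 8 treated explants lay above the control median and 7 of them above the highest control, so that the groups overlapped through blebbistatin 5 alone, which at 46.1 CPM stood below control 3 at 48.2 CPM and control 5 at 46.8 CPM.

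The mean of Acaa2 was 74.3 ± 19.9 CPM in treated explants, against 36.3 ± 8.29 CPM in control explants (SD, n = 8 per group). The fitted log2 fold change was 1.03 (SE 0.17), or 2.05-fold, given as a description of the value that chose the gene. In bulk samples, more RNA per cell and more cells of a type that holds it cannot be told apart. Over 27 alternatives the log2 fold change was 0.93 to 1.14. The gene stayed called in 24 of them, which belongs to the same description and is no test. It was no longer called with a covariate for Y-linked genes, for cardiomyocyte markers and for the mitochondrial share of counts. The log2 fold changes there were 0.94, 1.14 and 0.98, and these fits called 21, 0 and 1 of all tested genes, in the order given. The Y-linked covariate is the mean log2 CPM of listed genes of the Y chromosome. Whether this mean, or the sex of the explants, differed between the groups was not tested.

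**Figure D1:**
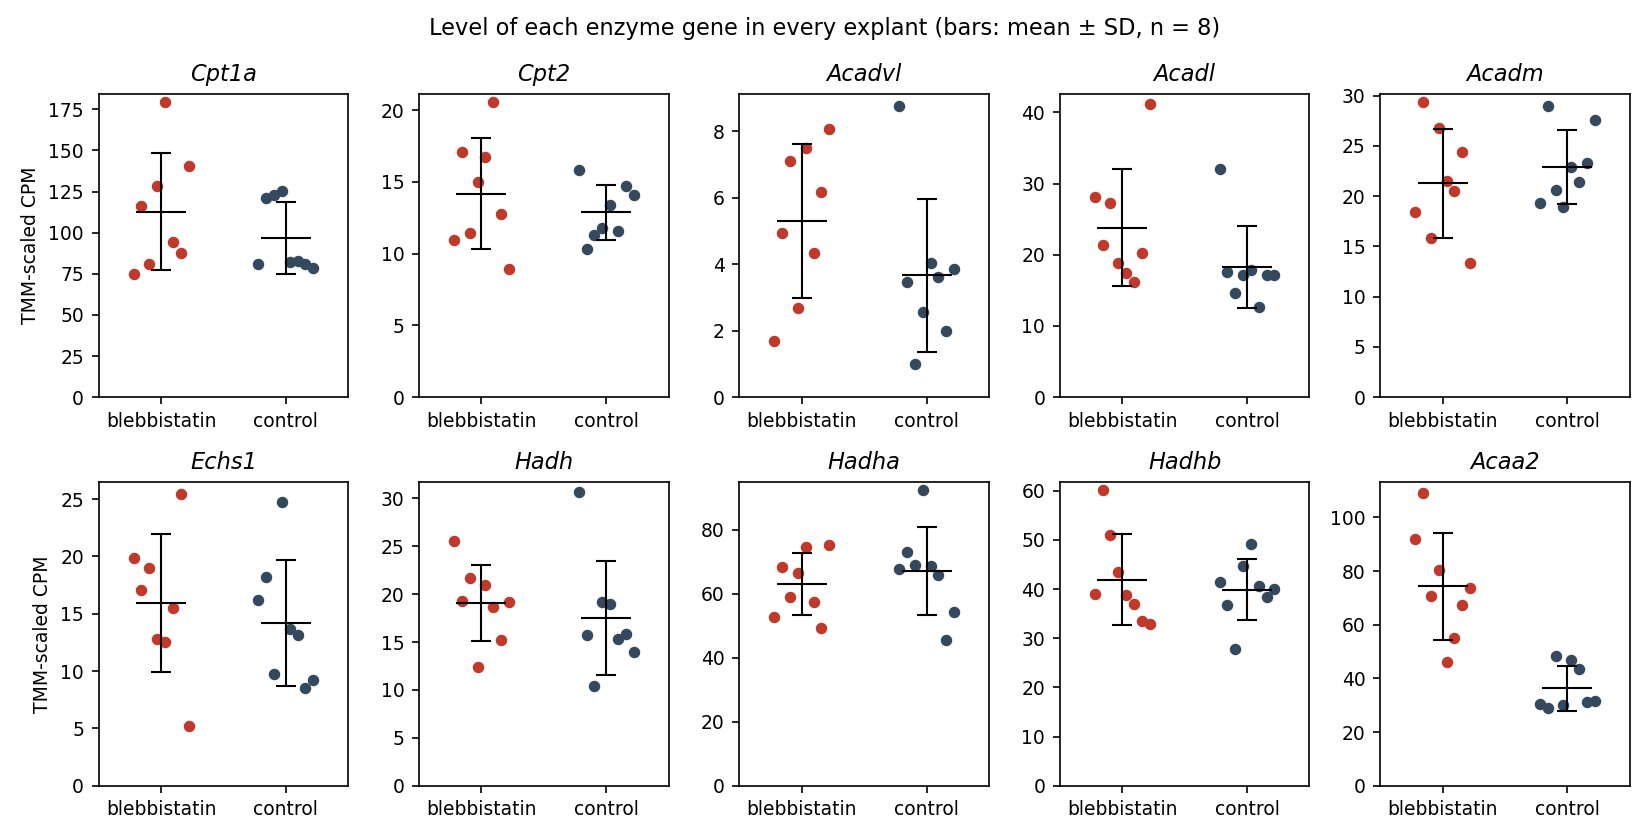
TMM-scaled CPM of the 10 enzyme genes in the 8 blebbistatin explants (left) and 8 control explants (right), one point per explant, in order of the pathway, with bars for mean ± SD. Acaa2 is the gene whose groups are nearly apart, at 46.1 to 109 CPM with blebbistatin and 29.1 to 48.2 CPM in controls, while the groups overlap widely in the others.

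Among the 9 other enzymes, 0 were called in either direction by edgeR, 0 had an unadjusted p under 0.05, and the adjusted p-values ran from 0.500 to 0.877. Over all tested genes, 0.606% were called, 0.255% higher and 0.351% lower, while 12.2% had an unadjusted p under 0.05, those higher being 6.21% of all genes, and 0.242% had groups that did not overlap in CPM, which held for 0 of the 10 enzymes. DESeq2 and limma voom called 0 of the 9 as well, as did each of the 27 alternatives. Of the 9, 7 had a log2 fold change above 0, and their median was 0.14, against a median of 0.04 and a share of 54.1% above 0 over all tested genes. For 8 of the 9 the 95% interval of the log2 fold change ended below 1, the value of a doubling, and the exception was Acadvl. Since the pathway was chosen through Acaa2, the gap between it and the others is a description and was not tested.

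Neither gene of the carnitine shuttle was called. Cpt1a, which attaches acyl groups to carnitine at the outer membrane and is the step inhibited by malonyl-CoA (chromosome 19, 3322334 to 3385733), had a lowest, median and highest level of 74.9, 105 and 179 CPM with blebbistatin, and of 78.5, 82.3 and 125 CPM in controls. Its control explants formed a low set of 5 between 78.5 and 82.7 CPM and a high set of 3 between 121 and 125 CPM, whereas the treated ones reached both below and above that range. The log2 fold change was 0.22 (SE 0.18, 95% interval −0.15 to 0.59). Cpt2, which returns the acyl group to CoA at the inner membrane (chromosome 4, 107903981 to 107923610), had 8.92, 13.9 and 20.6 CPM as lowest, median and highest level with blebbistatin, and 10.3, 12.6 and 15.8 CPM in controls. Its log2 fold change was 0.14 (SE 0.19, 95% interval −0.25 to 0.53), and the treated explants surrounded the controls on both sides. The ratio of Cpt1a to Cpt2 in CPM was 8.41 ± 3.44 in treated explants, against 7.85 ± 2.78 in control explants.

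The acyl-CoA dehydrogenases open each turn and differ in the chain length they take. None of the 3 was called, and their intervals included 0. Acadvl, the membrane-bound enzyme for very long chains (chromosome 11, 70010183 to 70015411), was lowest per length in controls, with a lowest, median and highest level of 1.69, 5.55 and 8.06 CPM with blebbistatin and 0.984, 3.54 and 8.75 CPM in controls. Its log2 fold change was 0.54 (SE 0.39, 95% interval −0.28 to 1.36), so that a doubling lay within the interval. Over the 27 alternatives it ran from −0.03, with the cardiomyocyte covariate, to 0.85. In the annotation, 42.9% of the exon bases of Acadvl are also covered by exons of Dvl2 on the other strand, whose level was 34.4 ± 14.0 CPM in treated explants, against 33.9 ± 12.1 CPM in control explants. Reads in the overlap cannot be assigned without strand, and no source states the strand setting, so the level of Acadvl is uncertain.

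Acadl, for long chains (chromosome 1, 66830839 to 66863277), had a lowest, median and highest level of 16.1, 20.8 and 41.2 CPM with blebbistatin and 12.7, 17.2 and 32.0 CPM in controls. Treated explants lay above the control median in 7 of 8 cases, and 1 explant in each group, blebbistatin 8 and control 1, stood well above the rest. The log2 fold change was 0.38 (SE 0.21, 95% interval −0.06 to 0.83). Over the 27 alternatives it ran from 0.14 to 0.54, and it was 0.22 without blebbistatin 8 and 0.14 without blebbistatin 1 and 8. Acadm, for medium chains (chromosome 3, 153922357 to 153944632), had 13.4, 21.0 and 29.4 CPM with blebbistatin and 18.9, 22.2 and 29.0 CPM in controls. Treated explants reached both lower and slightly higher than the controls, with a log2 fold change of −0.11 (SE 0.17, 95% interval −0.46 to 0.25).

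The soluble enzymes of the middle steps showed no call either. Echs1, the enoyl-CoA hydratase that adds water across the double bond (chromosome 7, 140105710 to 140116476), had a lowest, median and highest level of 5.22, 16.3 and 25.5 CPM with blebbistatin and 8.52, 13.4 and 24.8 CPM in controls. Its lowest value belonged to blebbistatin 8, with the next treated explant at 12.6 CPM, and its log2 fold change was 0.17 (SE 0.28, 95% interval −0.41 to 0.75). Hadh, the hydroxyacyl-CoA dehydrogenase for medium and short chains (chromosome 3, 131233419 to 131272101), had 12.4, 19.2 and 25.5 CPM with blebbistatin and 10.5, 15.8 and 30.7 CPM in controls. Here the highest explant of all was control 1, and the log2 fold change was 0.13 (SE 0.20, 95% interval −0.29 to 0.55).

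Hadha and Hadhb encode the alpha and beta subunits of the mitochondrial trifunctional protein, which carries out hydration, the second dehydrogenation and thiolysis for long chains at the inner membrane. Hadhb is thus the long-chain counterpart of Acaa2. Hadha (chromosome 5, 30118304 to 30155162, minus strand) had a lowest, median and highest level of 49.4, 62.8 and 75.2 CPM with blebbistatin and 45.6, 68.1 and 92.6 CPM in controls. Its treated explants lay wholly inside the range of the controls, with a log2 fold change of −0.09 (SE 0.14, 95% interval −0.38 to 0.19), the narrowest interval of the 9. Hadhb (chromosome 5, 30155248 to 30184593, plus strand) had 32.9, 38.8 and 60.2 CPM with blebbistatin and 27.9, 40.3 and 49.2 CPM in controls. Although blebbistatin 2 and blebbistatin 3 exceeded the highest control, the groups shared most of their range, and the log2 fold change was 0.07 (SE 0.15, 95% interval −0.23 to 0.38).

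Ratios within an explant set the thiolases side by side, and gene length cancels when a ratio is compared between groups. The ratio of Acaa2 to Hadhb in CPM was 1.79 ± 0.41 in treated explants, against 0.943 ± 0.341 in control explants (SD, n = 8 per group), and it rests on the difference that chose Acaa2. The lowest treated ratio was 1.19 and the highest control ratio 1.73, so that 5 treated explants lay above every control and 7 controls below every treated explant. The subunit ratio of Hadha to Hadhb was 1.55 ± 0.39 in treated explants, against 1.72 ± 0.43 in control explants, with 0 treated explants above the highest control. As a share of the summed CPM of the 10 genes, Acaa2 made up 19.0 ± 4.51% in treated explants, against 11.1 ± 2.71% in control explants, and Cpt1a 28.5 ± 6.73% in treated explants, against 29.3 ± 4.75% in control explants. These shares add to a fixed total, so that a larger share of 1 gene lowers the others.

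**Figure D2:**
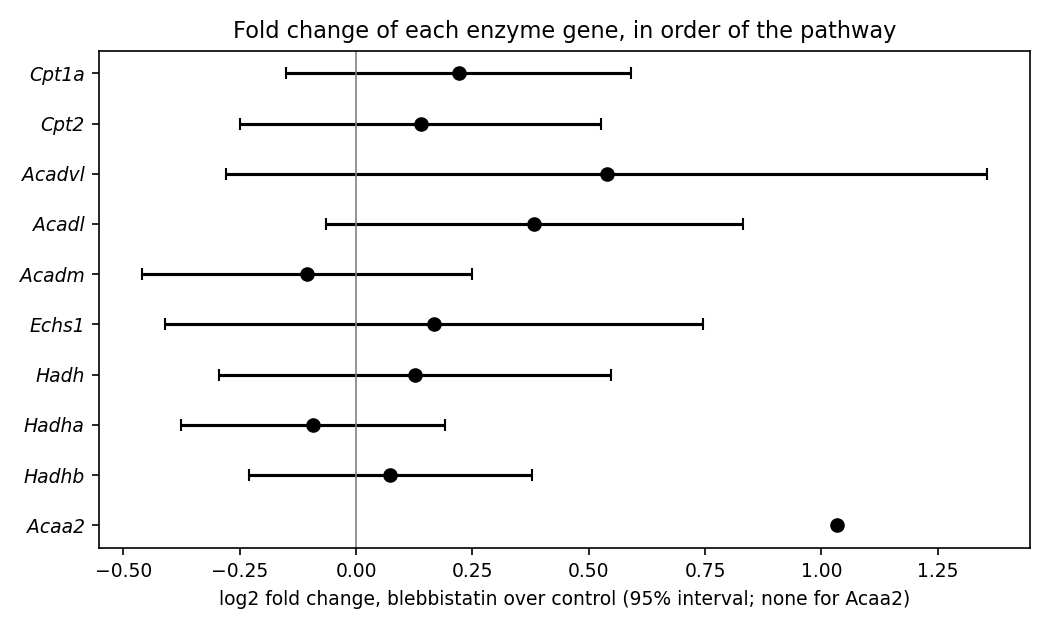
Log2 fold change of each enzyme gene, blebbistatin over control, from the edgeR fit across all genes, with 95% intervals for the 9 genes other than Acaa2, in order of the pathway from top to bottom. Acaa2 lies at 1.03, and the intervals of the 9 other genes include 0.

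The trifunctional pair is arranged head to head on chromosome 5, with 86 bases between the GENCODE gene starts and the genes running in opposite directions. The start regions of both are shown because they largely overlap on opposite strands, and that of Cpt1a because its level followed Hadha more closely than any other member's in the correlations given further on. Each window is 250 bases before to 50 after a RefSeq start on GRCm38.p6. For the genes shown, this start differs from the GENCODE start used for the gene coordinates. The windows of Hadha and Hadhb share 228 bases. Capitals mark the GC box GGGCGG and the nuclear receptor hexamer AGGTCA, on either strand.
Hadha, chr5:30154931-30155230, minus strand: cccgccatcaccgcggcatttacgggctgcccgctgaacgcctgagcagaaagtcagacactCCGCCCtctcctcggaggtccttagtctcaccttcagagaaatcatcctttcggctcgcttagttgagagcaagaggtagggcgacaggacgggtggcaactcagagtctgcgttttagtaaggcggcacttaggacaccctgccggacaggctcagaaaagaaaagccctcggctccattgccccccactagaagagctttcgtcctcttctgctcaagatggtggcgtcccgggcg
Hadhb, chr5:30155003-30155302, plus strand: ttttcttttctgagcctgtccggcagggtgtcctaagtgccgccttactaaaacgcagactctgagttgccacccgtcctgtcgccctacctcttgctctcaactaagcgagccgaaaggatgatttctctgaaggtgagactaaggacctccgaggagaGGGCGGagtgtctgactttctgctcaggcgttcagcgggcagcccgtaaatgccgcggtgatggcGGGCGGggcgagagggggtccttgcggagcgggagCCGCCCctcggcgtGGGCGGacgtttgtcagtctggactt
Cpt1a, chr19:3323051-3323350, plus strand: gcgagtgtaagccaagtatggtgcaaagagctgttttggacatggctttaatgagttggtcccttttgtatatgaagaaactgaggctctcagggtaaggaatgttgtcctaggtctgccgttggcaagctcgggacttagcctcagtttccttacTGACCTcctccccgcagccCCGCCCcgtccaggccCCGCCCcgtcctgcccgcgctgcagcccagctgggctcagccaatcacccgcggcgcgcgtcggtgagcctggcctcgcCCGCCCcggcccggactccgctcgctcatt

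Of the 10 genes, 9 had such a window, and Acaa2 is named only. The GC box was found in 7 of the 9, against 35.7% of the 32851 windows of all genes. Those without it were Acadm and Acadvl. The 9 windows had 50.7 to 70.3% G and C and 9 to 34 CpG, against medians of 52.7% and 7 over all windows, and no match for base composition was made. The single GC box of Hadha lies in the shared bases and is the same site as one of those of Hadhb. The hexamer AGGTCA was found in 4, namely Acadm, Echs1, Acadvl and Cpt1a, against 16.3% of all windows. The direct repeat bound by PPAR and RXR, searched as 2 copies of AGGNCA with 1 base between them, and the estrogen-related receptor site, which is AGGTCA preceded by TCA, so that it contains the hexamer, were found in 0 of the 9, against 0.381% and 0.423% of all windows. The NRF1 site, GCGCA and GCGC with 1 base between them, was found in 0 of 9, against 4.6%, and the TEAD site GGAATG in Cpt1a alone, against 14.7%. Both strands were searched, and a match or its lack describes these letters in these windows only.

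Levels can be compared between genes only per length, and the length comes from the annotation. For Echs1 it is 8286 exon bases in 4 blocks, or 4088 bases in its longest transcript. Which of its transcripts were present was not tested. The level of Acadvl is uncertain, since 42.9% of its exon bases overlap exons of Dvl2 on the other strand. In controls, Acaa2 led at 23.9 ± 5.47 CPM per kb of exon, followed by Cpt1a at 12.7 ± 2.86, Acadl at 9.12 ± 2.90 and Hadha at 7.69 ± 1.57 (SD, n = 8). Hadhb at 6.04 ± 0.94, Acadm at 5.84 ± 0.94 and Cpt2 at 5.38 ± 0.81 CPM per kb came next, and Hadh stood at 3.52 ± 1.21, Echs1 at 1.71 ± 0.66 and Acadvl at 1.36 ± 0.86. The neighbours Acadl and Hadha, Hadhb and Acadm, Acadm and Cpt2, and Echs1 and Acadvl differed by less than the larger of their SDs. With blebbistatin the level of Acaa2 was 49.0 ± 13.2 CPM per kb, and that of Cpt1a, still next in order, 14.8 ± 4.65. When the longest transcript served as length in place of all exon bases, Cpt1a stood at 22.4 ± 5.07 CPM per kb in controls, within 1 SD of Acaa2 at 23.9 ± 5.47, so the lead of Acaa2 in controls depends on the length used. So does the order below them, which was then Hadha at 16.7 ± 3.41, Acadm at 11.2 ± 1.80, Acadl at 9.55 ± 3.03, Hadhb at 9.08 ± 1.41, Cpt2 at 5.43 ± 0.81, Hadh at 4.67 ± 1.60, Echs1 at 3.47 ± 1.34 and Acadvl at 1.69 ± 1.06 CPM per kb.

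**Figure D3:**
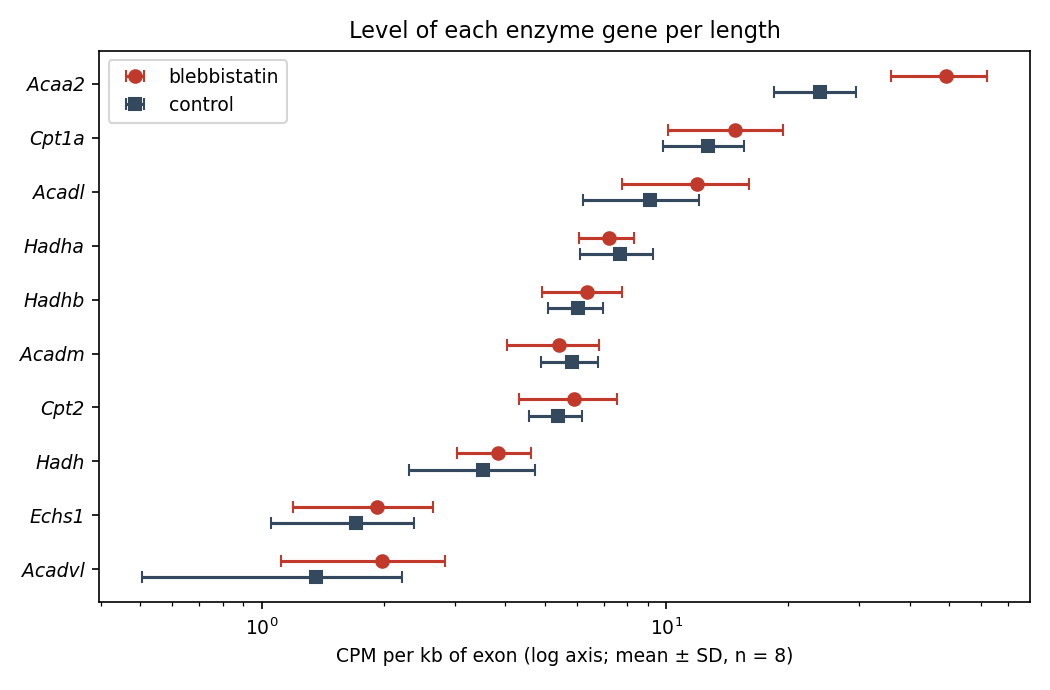
CPM per kb of exon on a log axis for the 10 enzyme genes, mean ± SD over 8 explants, with blebbistatin drawn above control for each gene. Acaa2 is highest in both groups, at 49.0 with blebbistatin and 23.9 in controls, and Acadvl is lowest in controls, at 1.36. The level of Acadvl is uncertain, since its exons overlap those of Dvl2.

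Within a group the enzymes did not vary as 1 block. Deviations of log2 CPM from the group mean were correlated over the 16 explants for each of the 45 pairs of genes, as a description without a test, since all values of an explant share its library and depth. Of the 45 coefficients, 25 were above 0, and the median was 0.05, with a range of −0.555 to 0.75. The highest was that of Hadha and Cpt1a, with a Pearson r of 0.75 and a Spearman rho of 0.84. It was 0.89 within the blebbistatin explants and 0.68 within controls, and 0.81 without the 2 explants farthest from the median of Hadha. Hadha and Hadhb, whose starts adjoin, had an r of 0.16 and a rho of 0.09. The lowest coefficient was that of the dehydrogenases Acadm and Acadl, with an r of −0.555 and a rho of −0.47, and −0.39 without the 2 farthest explants. It was −0.74 within the blebbistatin explants and −0.21 within controls. Pooled values could also join opposite signs, as for Hadha with Echs1, at −0.79 within the blebbistatin explants and 0.87 within controls, and for Acadl with Cpt2, at −0.92 within the blebbistatin explants and 0.65 within controls.

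The coefficients of Acaa2 were low. Those with the 9 other members ran from −0.42 for Acadvl to 0.25 for Hadhb. Among 9827 named genes with a mean of at least 5 CPM, ordered by their coefficient with Acaa2 over the 16 explants, Hadhb ranked 2027 and the next member, Acadm, 4082. The 5 genes most like it were Ppic (r = 0.84), which encodes a cyclophilin of the endoplasmic reticulum, Ccdc80 (0.80), a secreted matrix protein, the growth factor gene Fgf1 (0.79), Serping1 (0.79), the inhibitor of complement C1, and Slit3 (0.78), a secreted guidance ligand. None of these 5 was called between the groups, with log2 fold changes of 0.05 to 0.56 and edgeR adjusted p-values of 0.320 to 0.947. They were taken as the extremes of a long list, so their coefficients carry no test.

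Single explants shaped the spread of several members. Control 1 held the highest control level of Acadl at 32.0 CPM, Acadvl at 8.75 CPM, Hadh at 30.7 CPM and Cpt2 at 15.8 CPM, while its Acaa2, at 30.3 CPM, was below the control median. Without control 1, the correlation of Acadl with Hadh was 0.39, against 0.61 with all explants, and that of Acadvl with Hadh 0.30, against 0.51. The same explant had, of all 16, the highest summed level of the 2 adipocyte markers measured, Plin4 and Pck1, at 8.79 CPM, while the other control explants had 0.680 to 2.49 CPM, and it had the lowest sum of cardiomyocyte markers, at 462 CPM. Treated explants had 0.658 to 7.33 CPM of the same adipocyte markers, and the one at 7.33 CPM, blebbistatin 6, had the lowest treated level of Acadl, at 16.1 CPM. The listed adipocyte markers Adipoq, Plin1, Cidec, Cidea, Lep, Ucp1, Retn and Cfd were absent from the count table. The part of other cells in these values was not tested. Among treated explants, blebbistatin 8 was highest in Acadl, Acadvl and Hadha and lowest in Acadm, Echs1, Cpt2 and Hadhb.

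**Figure D4:**
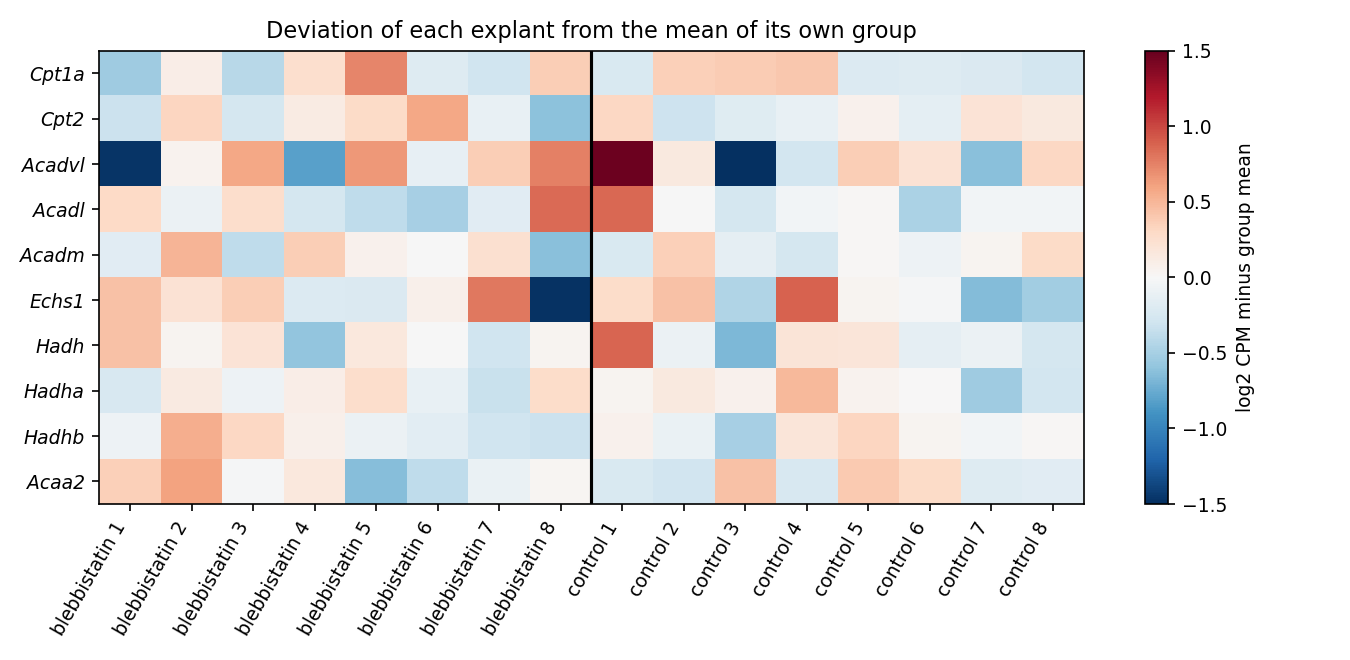
Log2 CPM of each enzyme gene minus the mean of its own group, for the 8 blebbistatin explants (left) and 8 control explants (right), on a colour scale limited to 1.5 in either direction. Control 1 is above its group mean in Acadl, Acadvl and Hadh together, and single explants lay above their own group's median in 1 to 9 of the 10 genes.

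The genes around the pathway were examined in the same fit. Of 10 other enzymes of the mitochondrial spiral, 0 were called and 0 had an unadjusted p under 0.05 by edgeR, with a median log2 fold change of 0.01. The smallest p-values were those of the acetoacetyl-CoA thiolase gene Acat1 (log2 fold change 0.31, edgeR adjusted p = 0.465) and of Acad12 (0.51, adjusted p = 0.507). Of 4 genes that pass electrons from the dehydrogenases to the respiratory chain, 0 were called and 1 had an unadjusted p under 0.05, with a median of 0.04. It was Etfb, a subunit of the electron transfer flavoprotein, at 0.42 (edgeR adjusted p = 0.406), followed by Etfdh at 0.09 (adjusted p = 0.836). Of 14 genes of fatty acid uptake, activation and carnitine transport, 0 were called and 3 had an unadjusted p under 0.05, with a median of 0.09. They included Slc22a5, a carnitine transporter of the plasma membrane, at 1.14 (adjusted p = 0.110), and the fatty acid binding protein gene Fabp4 at −2.18 (adjusted p = 0.225). Of 15 peroxisomal genes 0 were called and 0 had an unadjusted p under 0.05 by edgeR, with a median of 0.11. The smallest p-values there were those of the transporter gene Abcd3 at −0.27 (edgeR adjusted p = 0.438) and of Decr2 at 0.28 (adjusted p = 0.505).

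Regulators of the pathway were not called either. Of 13 nuclear receptor, coactivator and kinase genes, 0 were called and 4 had an unadjusted p under 0.05, with a median of 0.16. Rxra, which encodes the partner receptor of the PPARs, averaged 91.5 ± 13.4 CPM in treated explants, against 65.4 ± 8.13 CPM in control explants. Its log2 fold change was 0.49 (SE 0.11, edgeR adjusted p = 0.0538). It was above the control median in 8 of 8 treated explants, and over the alternatives without a replicate block its adjusted p was under the threshold by DESeq2 (0.00783), after adding a macrophage covariate (0.0382), without blebbistatin 3 (0.0367) and without control 6 (0.0431). Ppargc1a, for the coactivator PGC-1 alpha, was low, with a lowest, median and highest level of 2.91, 9.87 and 54.2 CPM with blebbistatin and 0.501, 2.26 and 13.3 CPM in controls. Its log2 fold change was 2.16 (SE 0.64, edgeR adjusted p = 0.137), and its adjusted p was under the threshold by DESeq2 (0.0470), after adding a macrophage covariate (0.0259) and without control 6 (0.0195). Of 7 PPAR target genes outside the enzymes, 0 were called and 3 had an unadjusted p under 0.05, with a median of 0.23. The smallest p-values were those of the thioesterase gene Acot2 at −0.64 (edgeR adjusted p = 0.266) and of the mitochondrial carrier gene Ucp2 at 0.45 (adjusted p = 0.393).

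**Figure D5:**
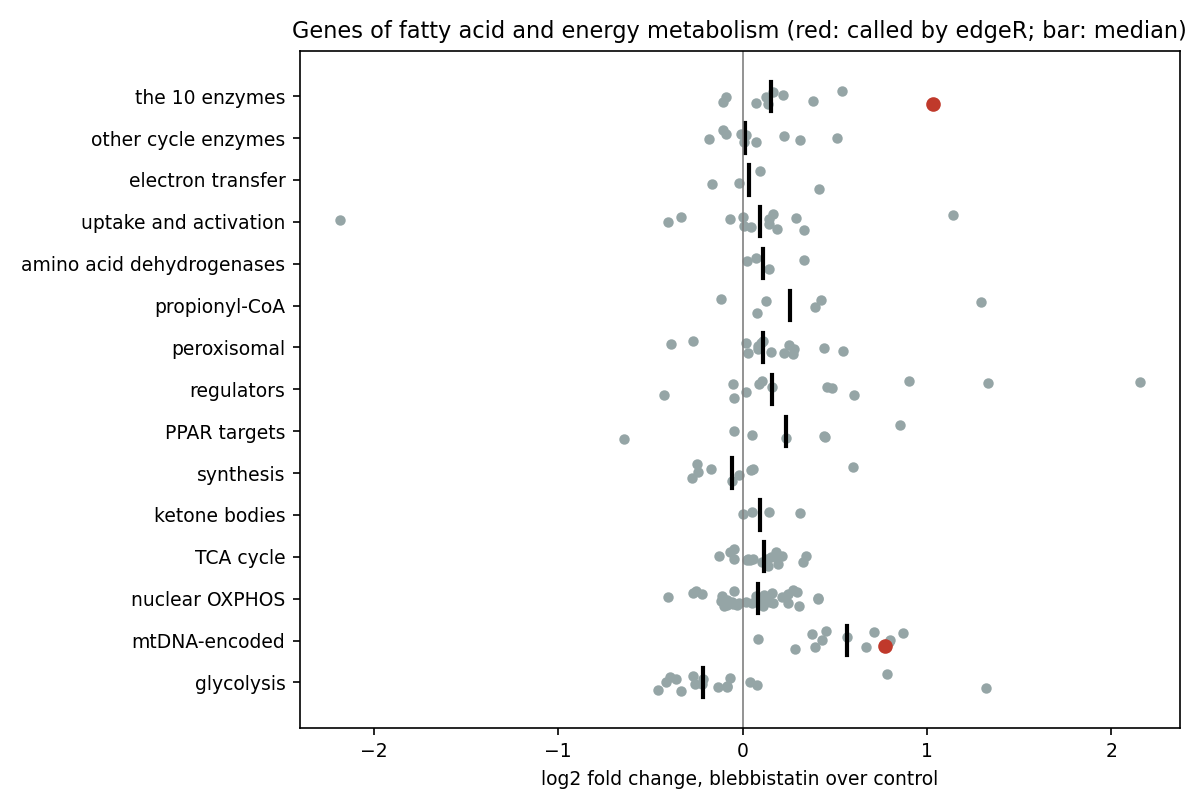
Log2 fold change, blebbistatin over control, of every tested gene in 15 lists of fatty acid and energy metabolism, one point per gene, with a bar at the median of each list. Red points are the genes called by edgeR, Acaa2 at 1.03 and mt-Cytb at 0.77, and the lists outside the mitochondrial DNA have medians between −0.21 and 0.26.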

How the data were processed

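Raw counts of reads for each gene in the 16 explants were deposited by the authors as 1 table. Per the submitters' processing notes, the tools were HTSeq 0.6.1p1, SAMtools 1.3, TopHat2 2.1.0, edgeR and Bowtie2 2.2.6.0, with build mm10 (GRCm38). No source used here gives their roles, the annotation, the strand setting or a filter, so reads of genes that overlap on opposite strands may have been mixed. Every gene of the table exceeded 1 CPM in at least 4 libraries. Gene names were restored from Ensembl identifiers, of which 15665 of 15805 matched the reference, because 21 had become dates and 72 were blank. Coordinates and exon lengths are from GENCODE M21, and promoter windows from RefSeq.

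Counts were scaled by TMM and filtered with filterByExpr, which removed 130 genes and left 15675, and were tested with edgeR 4.0.16 (R 4.3.3, robust quasi-likelihood fit, with group alone in the model). P-values were adjusted by Benjamini-Hochberg across the 15675 genes, and calls were made under 0.05. Fold changes are blebbistatin over control, and a standard error is the log2 fold change divided by the square root of the test's F. Log2 CPM used a prior count of 2. DESeq2 1.42.0 and limma 3.58.1 were alternatives, as were other size factors, no filter, library sizes without mitochondrially encoded genes, 4 covariates, the replicate number as a block and leaving out libraries. Library measures were compared by an exact permutation test over all 12870 splits, with marker sums in CPM of total counts. Replicates were compared by chi-square, which per degree of freedom was at least 48.9 (control 7 with control 8), so none was another library sequenced again. It cannot tell whether explants came from the same tissue or animal.

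The members and all gene lists were chosen with earlier results of these data known. Named genes are all members, the called genes and the 2 of smallest p in each pathway list, the most abundant gene of each marker list, and the 5 genes most correlated with Acaa2. Dvl2 and the other marker genes with values were named after these were seen. The fit was tested on simulated data.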

Additional observations from a re-analysis of the deposited data

Results flagged for a closer look

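For the members and the library measures in each condition, 38 groups of 8 values were examined. In 8 of them the highest or lowest explant lay far from the rest. The cutoff flags about 1 group in 20 for normally distributed values. Counts and CPM need not be so distributed and the groups share explants, so that rate may not hold here. Control 1 stood above the other controls in Acadl at 32.0 CPM (next 17.8), in Acadvl at 8.75 CPM (next 4.03) and in Hadh at 30.7 CPM (next 19.2). It also stood apart in the adipocyte markers at 8.79 CPM (next 2.49). Total counts were far above the rest of the group in blebbistatin 2 at 89620195 and in control 5 at 60321622. Macrophage markers summed to 3340 CPM in blebbistatin 3 (next 1600) and to 4320 CPM in control 6 (next 2070). As each of the 16 explants was left out, the log2 fold change of Acaa2 was 0.93 to 1.11. The causes were not tested.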

How the results depend on the processing

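The count of 0 called members other than Acaa2 stood in all 27 alternatives. Of all genes, edgeR called 95, against 412 with DESeq2, 310 with a macrophage covariate, 21 with a Y-linked covariate, 1 with the mitochondrial share and 0 with a cardiomyocyte covariate, and 44 to 206 as each library was left out. It moved by over 1.5 times without blebbistatin 5 (180), 6 (49) or 8 (62) and without control 1 (60), 2 (58), 4 (52), 6 (206), 7 (44) or 8 (54). The cause was not tested. With the replicate number as a block there were 177 calls, 77 of them among the 95. Same-numbered explants correlated by 0.004 to 0.335, 1 treated explant of 8 correlated best with its own number, and the labels do not say that numbers pair explants. Under the block Rxra (adjusted p = 0.0371) and Aldoc (0.0445) passed and mt-Cytb (0.085) did not. Of the 168 genes around the pathway edgeR called 1, against 12 with DESeq2, 5 with the macrophage covariate, 2 with the replicate block and 0 with the Y-linked, cardiomyocyte or mitochondrial covariate, and 0 to 4 as each library was left out. It was 0 without mitochondrially encoded genes, since mt-Cytb was then not tested.

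Signs turned only for uncalled members: Acadm (0.0038) without blebbistatin 1 and 8, Acadvl (−0.0251) with the cardiomyocyte covariate, Hadhb with the Y-linked covariate (−0.0198), the mitochondrial share (−0.0248) and without blebbistatin 2 (−0.0283, in a range up to 0.1229 as each library was left out), and Hadh (−0.1755) and Cpt2 (−0.1225) with the mitochondrial share. Leaving out libraries was added for the library measures after seeing the data. The mitochondrial share then differed by 4.33 to 5.59 percentage points (adjusted p = 0.0615, 0.0545 and 0.0503 without control 3, 7 and 8), and the cardiomyocyte sum by 301 to 387 CPM, with adjusted p-values of 0.0615 to 0.079 in the 11 of 16 cases that missed the threshold. The macrophage sum differed by −480 to 283 CPM and genes detected by −39.4 to 5.70. Acadvl had the fewest counts of the members, 29 to 393 in a library, and what depth adds to the width of its interval was not tested.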

Other observations

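Energy metabolism outside fatty acid oxidation was examined in the same fit. All 13 protein genes of mitochondrial DNA had a log2 fold change above 0, with a median of 0.57. Of these, 9 had an unadjusted p under 0.05 and 1 was called by edgeR, mt-Cytb, which encodes cytochrome b of respiratory complex III. It averaged 2971 ± 925 CPM in treated explants, against 1736 ± 288 CPM in control explants (log2 fold change 0.77, SE 0.17, edgeR adjusted p = 0.0410). The next was mt-Nd5 at 0.80 (edgeR adjusted p = 0.0616). Among the alternatives without a replicate block, the call of mt-Cytb ended with covariates for Y-linked genes (edgeR adjusted p = 0.171), cardiomyocyte markers (0.275) and the mitochondrial share (0.82). These fits called 21, 0 and 1 of all tested genes, in that order. The mitochondrial share counts mt-Cytb itself, so that fit cannot test mt-Cytb. Its call also ended without blebbistatin 1 and 8 together (0.0695), without blebbistatin 1, 2, 6 or 8 and without control 1, 2, 3, 5, 7 or 8. The edgeR adjusted p-values were 0.0545 to 0.0896 for these single explants. The nuclear genes of the respiratory chain had a median of 0.09 over 35 genes, of which 0 were called and 2 had an unadjusted p under 0.05, and those of the tricarboxylic acid cycle a median of 0.12 over 18 genes, with 0 called and 0 at an unadjusted p under 0.05 by edgeR. The smallest p-values were those of Cox7a2 (0.41, adjusted p = 0.310) and Ndufs1 (0.31, 0.360) in the chain and of Idh2 (0.34, 0.566) and Sdhc (0.33, 0.596) in the cycle.

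Of 17 glycolysis genes, 13 had a log2 fold change below 0, with a median of −0.21, and 0 were called, while 6 had an unadjusted p under 0.05. Pkm, for pyruvate kinase, averaged 219 ± 45.8 CPM in treated explants, against 288 ± 48.4 CPM in control explants (−0.39, edgeR adjusted p = 0.225). For the aldolase gene Aldoc the value was 1.32 (edgeR adjusted p = 0.106), and among the alternatives without a replicate block the adjusted p was under the threshold by DESeq2 (0.0167), after adding a macrophage covariate (0.0380) and without control 6 (0.0101). In the 9 genes of fatty acid synthesis and its control 0 were called and 1, Elovl6 (0.60, adjusted p = 0.304), had an unadjusted p under 0.05. The next, Fasn, for fatty acid synthase, was at −0.25 (edgeR adjusted p = 0.435), and the median was −0.06. Of 4 acyl-CoA dehydrogenases of amino acid breakdown 0 were called and 1 had an unadjusted p under 0.05, Acadsb at 0.34 (edgeR adjusted p = 0.279), with Ivd next at 0.15 (0.800) and a median of 0.11. Of 6 genes of propionyl-CoA breakdown 0 were called and 1 had an unadjusted p under 0.05, Mmaa at 1.29 (edgeR adjusted p = 0.199), with Pccb next at 0.43 (0.53) and a median of 0.26. Of 4 ketone body genes 0 were called and 0 had an unadjusted p under 0.05 by edgeR, with Bdh1 at 0.14 (adjusted p = 0.872) after Acat1 and a median of 0.10. In all, 1 of 168 genes around the enzymes was called, or 0.595%, against 0.606% of all tested genes, and 18.5% had an unadjusted p under 0.05, against 12.2%. Without the mitochondrial DNA genes, which moved with the mitochondrial share of counts, it was 22 of 155 genes, or 14.2%.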
